A study of Mus musculus with 6 samples.

Results

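Cytosolic ribosomal proteins are the protein components of the ribosomes that translate nuclear mRNAs, and 48 of their genes could be followed in mouse bone marrow 1 day after induction of c-Jun. Members were all probe sets to which the authors' deposited annotation gives exactly 1 gene symbol, where that symbol is a ribosomal protein name (Rps or Rpl with a number and an optional a, x, y or l ending, with Rpsa, Rplp0, Rplp1 and Rplp2 added and the S6 kinases left out). This gave 112 probe sets of 45101 and 48 genes of 20679 symbols, with 57 probe sets and 24 genes for the small subunit and 55 probe sets and 24 genes for the large subunit. Rpsa and Rplp1 had no such probe set. Another 110 probe sets list a ribosomal protein among several symbols, and 33 ribosomal protein symbols occur only on those, so they are not named from them.

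RNA of whole bone marrow from c-Jun inducible mice was hybridized to 6 Affymetrix mouse arrays. The 3 induced arrays came from mice that drank doxycycline at 1 mg/ml for 24 h (day 1), and the 3 control arrays came from c-Jun inducible mice before induction (day 0). Every array held RNA pooled from 3 mice, the mice were 8 weeks old per the protocol, and the titles number the arrays as biological replicates. Both groups are thus c-Jun inducible mice, and the promoter that drives c-Jun and the strain are not given in the sources used here. Mice that lack the inducible gene but drank the antibiotic were not analysed here. The antibiotic, the induction and the day therefore cannot be told apart.

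A ribosome has a small subunit, which holds the mRNA and reads its codons, and a large subunit, which joins amino acids and carries a flexible stalk that recruits the translation factors. The subunits are assembled in the nucleolus with near equal numbers of each protein, and many ribosomal protein mRNAs begin with a run of pyrimidines, the 5' terminal oligopyrimidine (TOP) motif, through which growth signals control their translation. In people, loss of 1 copy of several of these genes causes Diamond-Blackfan anaemia, a failure of red cell formation in the marrow.

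The start of transcription is where the TOP motif lies, so the sequences around it are shown for the genes that carry it there. RefSeq start windows (GRCm38.p6) were found for 37 of the 48 genes, 43 windows of 300 bases in all. Each line below gives 45 bases before the annotated start and 15 from it, 5' to 3', with the pyrimidine run (C at the first base and at least 4 C or T after it) in capitals.
Rps18 (chr17:33955651-33955710, minus strand): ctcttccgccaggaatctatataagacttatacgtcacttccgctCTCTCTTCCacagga
Rps10 (chr17:27635230-27635289, minus strand): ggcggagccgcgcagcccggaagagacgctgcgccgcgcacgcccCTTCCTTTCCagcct
Rps6 (chr4:86857353-86857412, minus strand): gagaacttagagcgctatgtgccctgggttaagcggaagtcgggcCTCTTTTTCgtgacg
Rps27 (chr3:90213634-90213693, minus strand): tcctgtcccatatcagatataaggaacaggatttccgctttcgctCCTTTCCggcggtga
Rplp2 (chr7:141447606-141447665, plus strand): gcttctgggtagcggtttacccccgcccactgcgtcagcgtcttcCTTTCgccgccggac
Rpl38 (chr11:114668535-114668594, plus strand): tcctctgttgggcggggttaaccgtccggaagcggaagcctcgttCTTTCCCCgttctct
Rpl35 (chr2:39005117-39005176, minus strand): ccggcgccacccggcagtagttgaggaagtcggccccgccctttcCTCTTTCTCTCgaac
Rpl14 (chr9:120571472-120571531, plus strand): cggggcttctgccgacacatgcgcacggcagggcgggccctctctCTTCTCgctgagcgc
Such a run at the first base was in 18.6% of the ribosomal windows, against 2.51% of all 32851 windows in the table. A run starting within 5 bases of the annotated start was in 37.2% of ribosomal windows, against 18.3% of all. Of the 14 genes over 10 in mean signal with a run within 5 bases, 10 rose on the arrays (median log2 change 0.63), by the test described below. Of the 16 with a window and no such run, 12 rose (median 0.84). Among all 39 ribosomal protein genes over 10, 30 rose (76.9%), as did 32.7% of all probe sets over 10 and 4.19% of all tested. Nothing about the run is read from these counts. The next lines are the start windows of the genes with the largest and the smallest change in each subunit, Rps4x and Rps16 for the small one and Rpl9 and Rpl39l for the large one, none of which has a run within 5 bases of the annotated start.
Rps4x (chrX:102189377-102189436, minus strand): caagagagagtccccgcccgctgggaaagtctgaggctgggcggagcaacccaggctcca
Rpl9 (chr5:65391417-65391476, minus strand): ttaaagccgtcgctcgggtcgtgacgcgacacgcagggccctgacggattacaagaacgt
Rps16 (chr7:28350644-28350703, plus strand): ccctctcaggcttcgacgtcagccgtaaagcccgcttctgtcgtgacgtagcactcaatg
Rpl39l (chr16:10170183-10170242, plus strand): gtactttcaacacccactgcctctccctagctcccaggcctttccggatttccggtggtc
The letters CCGGAAG, a core of ETS factor sites, occurred on either strand in 37.2% of ribosomal windows, against 8.86% of all. The letters TGANTCA, with any base at N, occurred in 2.33% of ribosomal windows (1 window, that of Rpl9), against 7.81% of all. This pattern includes the AP-1 site that Jun and Fos proteins bind, where N is C or G, but also other sequences. The letters TGACGTCA, a cAMP response element, were in 6.98% against 1.79%, and AAGATGGC, a YY1 core, in 6.98% against 2.75%. Both strands were searched for each motif other than the pyrimidine run, and none of these motifs contains another. A match in these windows is a description of letters only.

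On the arrays as a whole, the summed signal was 246508 ± 28725 on induced arrays and 205858 ± 14351 on control arrays (SD, n = 3 each). A signal over 10 was read by 3101 ± 267 probe sets on induced arrays and by 2636 ± 227 on control arrays. Signals of 0 numbered 346 on control 2 and 4651 to 7813 on the other 5 arrays. The 18 hybridization control probe sets, RNAs added in known amounts before hybridization, had induced over control ratios of 0.971 to 1.02. The induced gene Jun was read near background, where the brighter of its probe sets had signals of 4.3, 2.6 and 1.5 on induced arrays, against 0.2, 2.0 and 1.2 on control arrays (limma, adjusted p = 0.446). Background was taken as a signal of 2, the highest that 27 bacterial control probe sets reached. The signal of the Gapdh probe set at the 5' end of the mRNA, as a percent of that at the 3' end, was 27.7, 28.9 and 25.8 on induced arrays, against 14.1, 22.7 and 12.5 on control arrays. For Actb it was 22.4, 19.9 and 17.4 on induced arrays, against 15.1, 13.5 and 10.4 on control arrays. This measure of RNA length or amplification moved with the groups, and its part in the changes below was not tested.

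Ribosomal protein genes of both subunits rose in the induced marrow. Rps4x, Rps3 and Rps28 of the small subunit and Rpl9, Rpl11 and Rpl10a of the large subunit changed most, and 39 of 39 genes with a mean signal over 10 had a higher mean on induced arrays in the deposited signals (33 of 39 after quantile normalization). Of 48 genes tested, 30 rose (limma, adjusted p under 0.05 over all 31526 probe sets) and 0 fell, with 40 higher and 0 lower at an unadjusted p under 0.05. Among all probe sets tested, 4.19% were called higher and 1.35% lower, and among the 2868 with a mean signal over 10, 32.7% and 8.26%. With a pseudocount of 1 in place of 16 on the log scale, 0 genes were called (19 higher at unadjusted p, smallest adjusted p = 0.179 from limma), where 0.349% of all probe sets were called higher and 6.84% were higher at unadjusted p. The count was 17 without control 2, 17 with a pseudocount of 64, 13 with no filter on low signals and 5 by the authors' deposited p-values after adjustment. By probe set, 58 of 106 tested rose and 0 fell (limma, with 78 higher and 1 lower at unadjusted p).

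Of the 39 genes over 10, 30 rose and 36 had all 3 induced arrays above all 3 control arrays. Among all tested probe sets 10.9% did so, and 7.12% had all induced arrays below all controls. Of the 2868 probe sets over 10, 1276 lay above in this way and 337 below. The 39 genes had a median ratio of induced over control mean signal of 1.72 and a median change of 0.72 on the log2(signal + 16) scale. The 2707 probe sets over 10 with no ribosomal protein symbol had a median log2 change of 0.21, and 811 of them rose. Among genes with a mean signal over 100, 27 of 34 ribosomal protein genes rose, against 37.9% of 203 other probe sets. The 9 genes with a mean of 10 or under had 0 calls in either direction (limma, 2 higher and 0 lower at unadjusted p). In bulk marrow, a change in the number of cells of a type and a change in RNA per cell cannot be told apart.

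**Figure D1:**
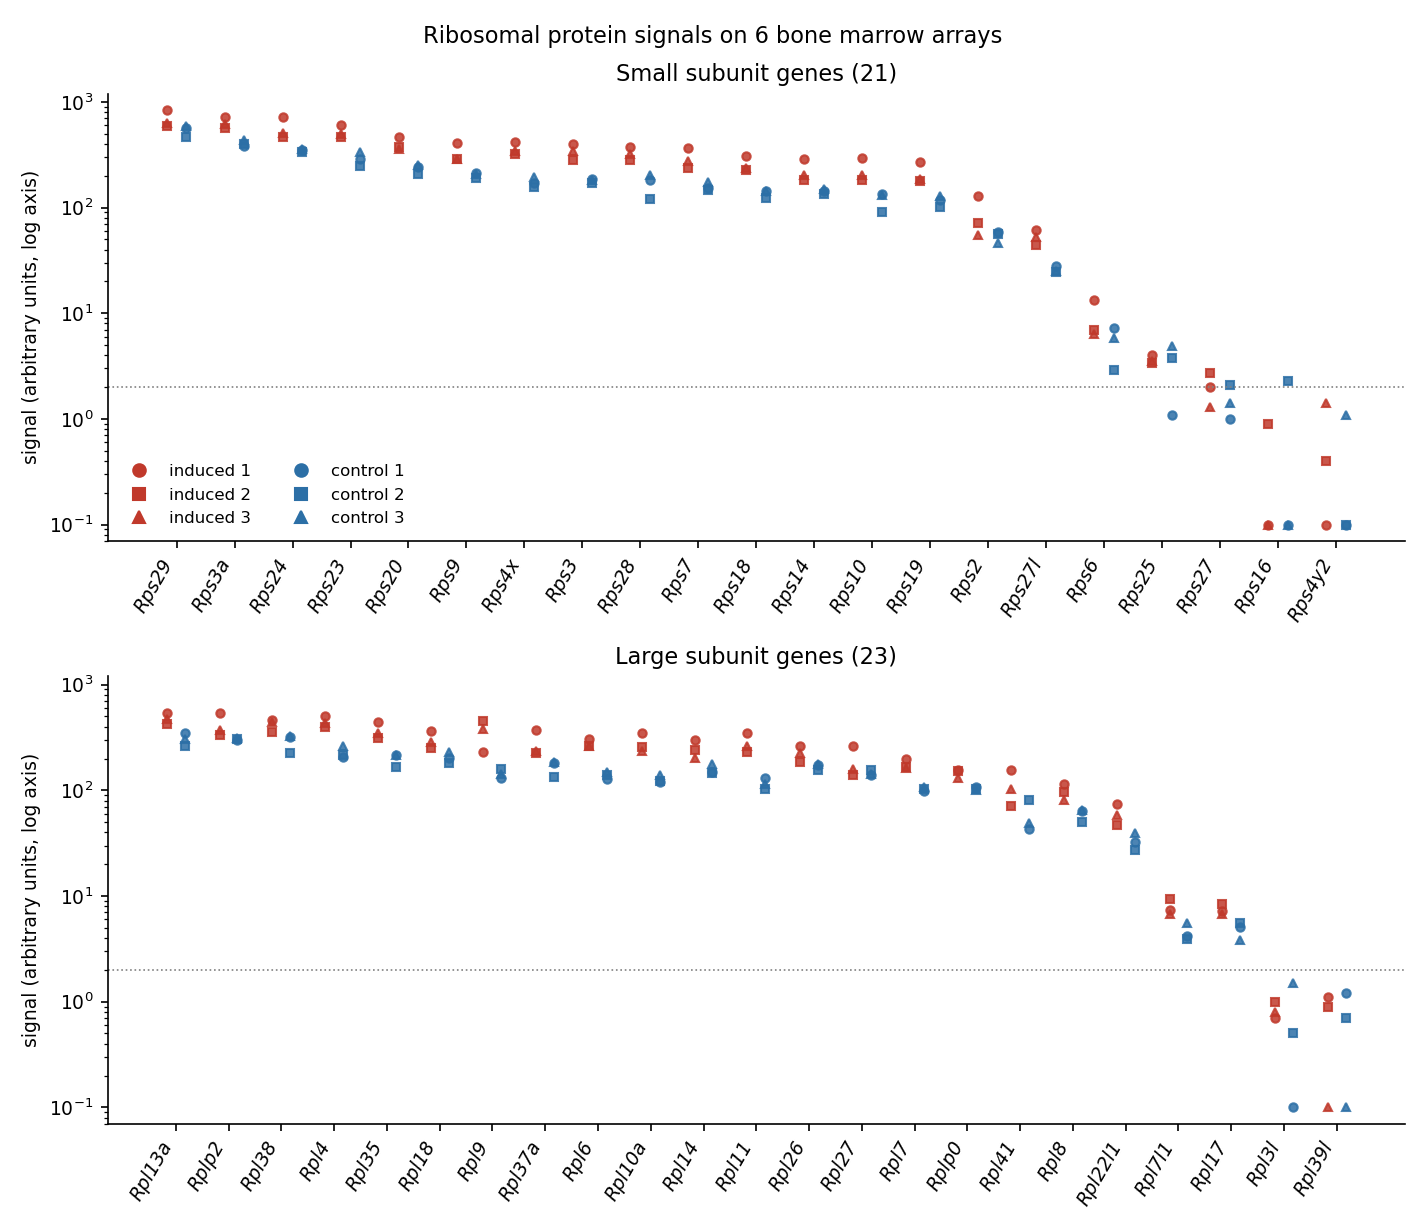
Deposited signal (arbitrary units, log axis) of the brightest probe set of each of 44 genes, by subunit, on 3 induced (red) and 3 control (blue) arrays, with marker shapes for replicate numbers. Signals under 0.1, zeros included, are drawn at 0.1, and the dotted line is the background signal of 2. Induced arrays lie above control arrays for 32 of the 35 genes drawn with a mean signal over 10, and 9 genes have a mean of 10 or under.

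Among the small subunit genes with the highest mean signal were Rps29, Rps3a, Rps24, Rps23 and Rps20, though probe sets differ in how well they bind, so signals are compared only between arrays and not between genes. Rps24, whose human gene is mutated in Diamond-Blackfan anaemia, had 725.4, 468.2 and 509.7 on induced arrays, against 349.2, 334.3 and 360.5 on control arrays, with induced 1 far above the others and no overlap (log2 change 0.66, standard error 0.13, limma, adjusted p = 0.0202). Rps3a had 717.2, 566.5 and 621.2 on induced arrays, against 384.4, 399.7 and 433.1 on control arrays, and here too the groups did not overlap (limma, adjusted p = 0.00253). Rps23, a protein at the decoding centre, had 609.8, 466.8 and 492.7 on induced arrays, against 291.0, 247.2 and 334.4 on control arrays (log2 change 0.81, limma, adjusted p = 0.00361). Rps20 rose by a ratio of 1.70 with no overlap (limma, adjusted p = 0.00327). After quantile normalization Rps24 (log2 change 0.20), Rps3a (0.15) and Rps20 (0.23) were not called (limma, adjusted p between 0.0519 and 0.167), and Rps23 was. Rps29, a small zinc-binding protein, did not pass the test: it had 828.8, 591.1 and 630.3 on induced arrays, against 560.5, 466.0 and 587.6 on control arrays (ratio 1.27, limma, adjusted p = 0.242). Its lowest induced array lay barely above its highest control, and its change turned to -0.02 after quantile normalization.

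Of the large subunit the genes with the highest mean signal were Rpl13a, Rplp2, Rpl38, Rpl4, Rpl35 and Rpl18. Rpl13a, which in human monocytes also silences inflammatory mRNAs, had 536.7, 421.3 and 475.2 on induced arrays, against 352.2, 260.7 and 305.3 on control arrays (log2 change 0.62, limma, adjusted p = 0.0108). After quantile normalization its change was 0.09 and it was not called (limma, adjusted p = 0.721). Rpl4, which lines the tunnel for the new protein, had 500.3, 398.1 and 429.4 on induced arrays, against 206.6, 216.4 and 263.6 on control arrays (log2 change 0.91, standard error 0.10, limma, adjusted p = 0.000953). The induced arrays of both genes lay wholly above the controls. Rpl35, printed above with its pyrimidine run, rose by a ratio of 1.85 (limma, adjusted p = 0.00543). Rpl38, needed for Hox mRNA translation in mice, had 467.1, 358.4 and 442.3 on induced arrays, against 319.5, 226.7 and 327.9 on control arrays, which did not pass the test (ratio 1.45, limma, adjusted p = 0.0659). Rpl18 had a ratio of 1.46 and did not pass either (adjusted p = 0.0562 from limma). In both genes the groups did not overlap.

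Rplp0, the base of the stalk, rose in the deposited signals, with 154.8, 150.8 and 131.6 on induced arrays, against 107.0, 102.8 and 101.6 on control arrays (ratio 1.40, log2 change 0.43, limma, adjusted p = 0.0038). After quantile normalization its change was 0.10 and it was not called (limma, adjusted p = 0.72). Rplp2, an acidic stalk protein, had 542.1, 330.6 and 369.1 on induced arrays, against 299.8, 302.8 and 310.3 on control arrays, a ratio of 1.36 that did not pass (limma, adjusted p = 0.221). Its induced 1 signal stood apart from the other 2 induced arrays, which lay close to the controls.

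In the deposited signals the genes that changed most carried ratios of about 2. The authors' deposited table gave smaller ratios for the same probe sets, from 1.46 (Rpl9) to 1.89 (Rpl11). Rps4x, the X-linked form of Rps4 whose start window is printed above, had 413.3, 323.9 and 339.2 on induced arrays, against 172.1, 157.8 and 193.7 on control arrays (ratio 2.06, log2 change 0.97, standard error 0.10, limma, adjusted p = 0.000551). Rps28, and Rps3, a protein at the mRNA entry channel, both rose, each by a ratio of 1.92 with no overlap between groups (limma, adjusted p = 0.0118 for Rps28 and 0.00136 for Rps3). Rpl9 had 230.5, 451.2 and 383.6 on induced arrays, against 131.0, 158.1 and 142.8 on control arrays (ratio 2.47, log2 change 1.17, standard error 0.19, limma, adjusted p = 0.00743). Its lowest induced signal was on induced 1, the array where 37 of the 39 genes over 10 were highest. Rpl11, which binds the p53 inhibitor Mdm2 when ribosome assembly fails, had 346.3, 228.3 and 264.5 on induced arrays, against 131.7, 103.8 and 115.9 on control arrays (ratio 2.39, limma, adjusted p = 0.00116). Rpl10a, a protein of the L1 stalk, had 351.4, 254.7 and 236.7 on induced arrays, against 118.8, 121.3 and 140.6 on control arrays (ratio 2.21, limma, adjusted p = 0.00149). Among the 39 genes over 10, 5 had a ratio of 2 or more and 7 a ratio under 1.5. After quantile normalization Rpl9 (log2 change 0.70) and Rps28 (0.42) were not called (limma, adjusted p = 0.192 and 0.123).

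**Figure D2:**
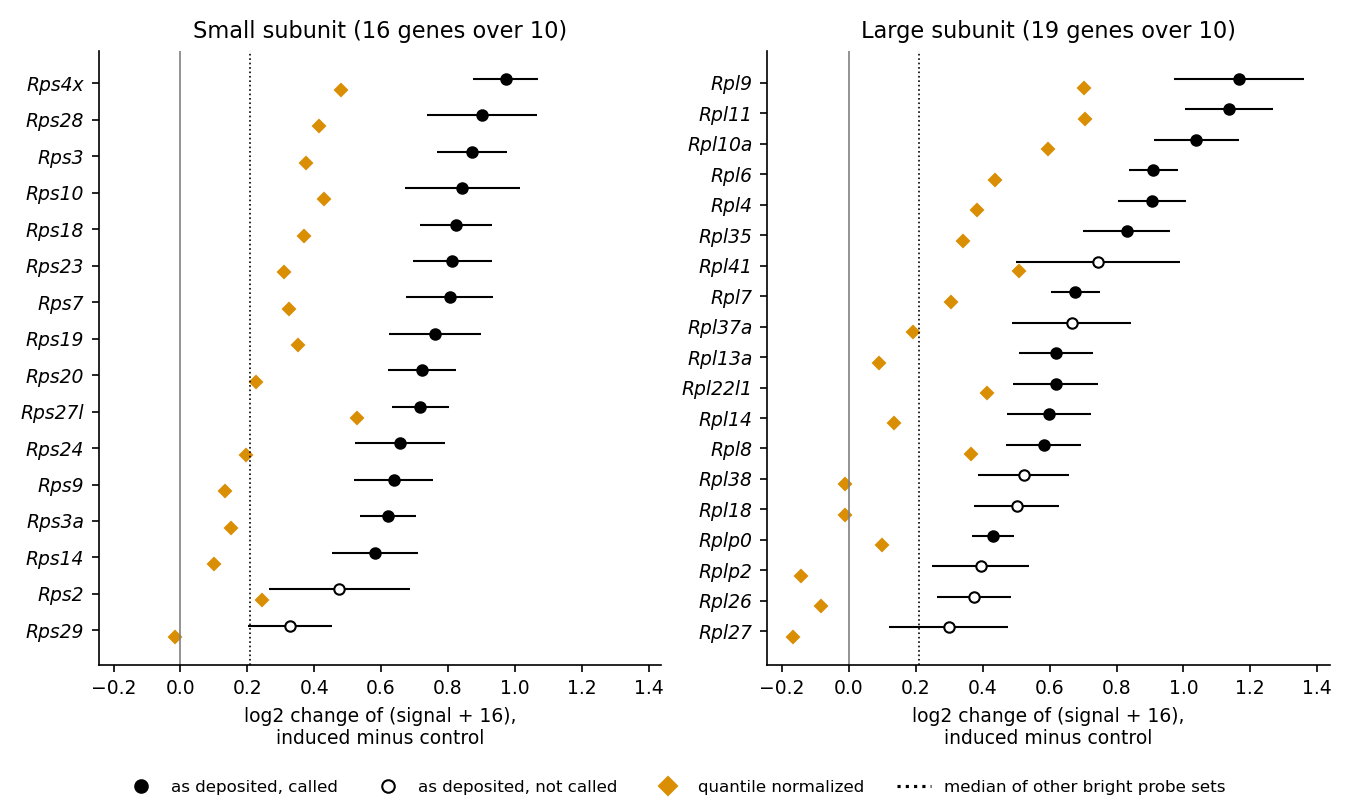
Change in log2(signal + 16), induced minus control, of 35 genes over 10 by subunit, as deposited (circles with standard errors, filled where adjusted p is under 0.05) and after quantile normalization (diamonds), with a dotted line at the median of 0.21 for other probe sets over 10. As deposited all 35 changes drawn lie above 0, and after quantile normalization 6 lie below it.

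The other genes over 10 moved within the same range. Rpl6, Rpl14, Rpl7 and Rpl8 all rose with no overlap, by ratios of 1.58 to 1.98 (limma, adjusted p between 0.000161 and 0.0224). Rpl6, with the smallest adjusted p of these, had 304.8, 259.8 and 260.6 on induced arrays, against 128.8, 139.1 and 148.1 on control arrays. Rps9 rose by a ratio of 1.62 (limma, adjusted p = 0.0128) and Rps18, whose start is printed above, by 1.88 (limma, adjusted p = 0.00211). Another Rps9 probe set, nearly as bright, had a ratio of 1.23, overlapped between groups and was not called (limma, adjusted p = 0.527). After quantile normalization Rpl14 (log2 change 0.13), Rpl8 (0.37) and Rps9 (0.13) were not called (limma, adjusted p between 0.0515 and 0.562). Rpl37a had a ratio of 1.67 that did not pass (limma, adjusted p = 0.0683), although its groups did not overlap. Rpl27 was not called and overlapped between groups, with 264.7, 139.7 and 160.6 on induced arrays, against 138.3, 154.5 and 142.0 on control arrays. Rpl41, with 157.1, 70.9 and 101.9 on induced arrays, against 42.9, 81.8 and 49.5 on control arrays, overlapped as well, as did Rps2. Control 2 had the lowest signal for 27 of the 39 genes, and induced 1, highest for 37, also had the highest summed signal of all arrays.

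Of the 10 Diamond-Blackfan and 5q genes listed, 7 were measured and 7 of 7 rose, with a median log2 change of 0.76. All 7 had a mean signal over 100, where 27 of 34 ribosomal protein genes (79.4%) and 55.4% of all probe sets rose, against 4.19% of all probe sets tested, so nothing particular to these 7 is read from the count. Rps7, Rps10, Rps14, Rps19 and Rpl11 were among them. Rps19, the gene most often mutated in that anaemia, had 269.4, 177.9 and 187.9 on induced arrays, against 118.9, 101.7 and 130.0 on control arrays (ratio 1.81, limma, adjusted p = 0.0113). Rps14, lost in the human 5q- syndrome, had 286.6, 184.1 and 205.0 on induced arrays, against 144.6, 134.8 and 148.6 on control arrays (ratio 1.58, limma, adjusted p = 0.0305). In both the groups did not overlap. Rps7 rose by a ratio of 1.85 (limma, adjusted p = 0.00633) and Rps10, with its pyrimidine run at the first base, by 1.92 (limma, adjusted p = 0.0205). Without control 2, Rps7, Rps10, Rps14, Rps19 and Rps24 were no longer called (limma, adjusted p between 0.052 and 0.15), and Rpl11 still was. After quantile normalization Rps10 (log2 change 0.43), Rps14 (0.10) and Rps24 were not called either (limma, adjusted p between 0.0975 and 0.504).

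Paralogs, duplicated genes with a restricted or alternative role, gave mixed calls. Rps27l, a p53 target in human cells, had 61.8, 44.6 and 53.1 on induced arrays, against 27.7, 24.6 and 25.3 on control arrays (ratio 2.06, limma, adjusted p = 0.00124). Rpl22l1 had 73.7, 47.2 and 58.7 on induced arrays, against 32.7, 27.1 and 39.8 on control arrays (ratio 1.80, limma, adjusted p = 0.0217). Both had no overlap, and without control 2 the adjusted p of Rpl22l1 from limma was 0.114. Rpl7l1 read 7.4, 9.3 and 6.7 on induced arrays, against 4.2, 3.9 and 5.5 on control arrays, and was not called (limma, adjusted p = 0.079). Rpl3l, a striated muscle form, Rpl39l, a testis form, and Rps4y2 were at or under the background signal on all 6 arrays. Rps16, Rps25, Rps27, Rps6 and Rpl17 also had a mean signal of 10 or under on their single-symbol probe sets, and all 5 are listed on probe sets with several symbols too, so no statement is made of their level. The 81 probe sets over 10 that list a ribosomal protein among several symbols rose in 69 cases and fell in 0, with a median ratio of 1.80. Among all 2868 probe sets over 10, 32.7% rose and 8.26% fell.

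Both subunits were higher in the induced marrow, and the small subunit's share of the family overlapped between groups. Ribosomal protein signal summed over the brightest probe set of each gene was 14191.4, 10414.3 and 11072.5 on induced arrays, against 7186.4, 6445.9 and 7541.8 on control arrays, and the 3 induced sums were above all 3 control sums. That was 5.10%, 4.67% and 4.65% of all signal on induced arrays, against 3.80%, 3.01% and 3.52% on control arrays. The small subunit made up 55.8%, 54.0% and 54.4% of the family sum on induced arrays, against 55.3%, 54.3% and 55.0% on control arrays. As means these were 54.7 ± 0.935% on induced and 54.9 ± 0.485% on control arrays (SD, n = 3 each). Of genes over 10, 17 of 19 small subunit genes rose and 13 of 20 large subunit genes. Their median log2 changes were 0.74 for the small and 0.64 for the large subunit. Since each subunit's values come from its own probe sets, shares are compared between arrays only. The median difference between subunits, small minus large, over all 48 genes was 0.08, and it was -0.02 from the ratios in the authors' deposited table and -0.07 when the probe sets of each gene were averaged, so no direction is read from it.

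**Figure D3:**
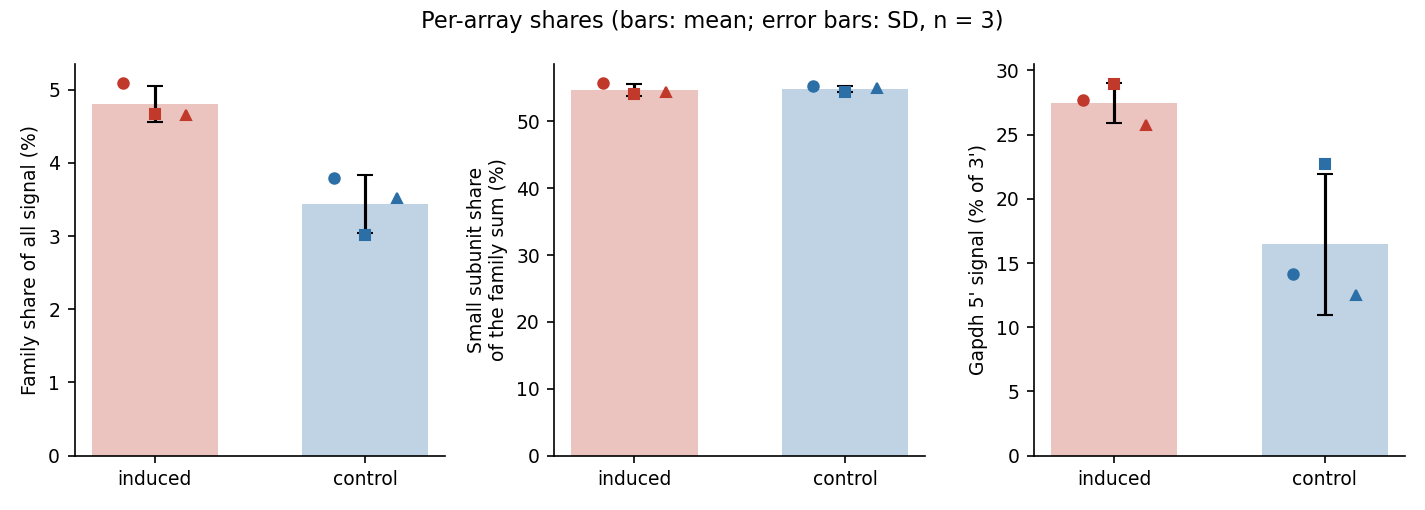
Family share of all signal, small subunit share of the family sum and Gapdh 5' signal as a percent of 3' on induced (left) and control (right) arrays, with bars for means, error bars for the SD and points for arrays (n = 3 each). The family share is 4.81% on induced and 3.44% on control arrays, while the small subunit share is 54.7% and 54.9%.

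Genes were then set against the family itself, by subtracting each array's median over the member genes before the same fit. Rpl9 (log2 change 0.42, limma, adjusted p = 0.0169) and Rpl11 (0.39, adjusted p = 0.0266 by limma) lay above it. Below it lay 13 genes, 9 of them at a mean signal of 10 or under, where the pseudocount shrinks every change, and 4 over 10. These were Rps29 (-0.42), Rplp2 (-0.36), Rpl26 (-0.38) and Rpl27 (-0.45), with adjusted p between 0.00944 and 0.041 from limma. The other Rpl26 probe set was not called against the family (-0.08, limma, adjusted p = 0.656) and rose by a ratio of 1.72. For Rpl27, another probe set was not called against the family (-0.23, limma, adjusted p = 0.191), and a further probe set lay below it (-0.63). The other Rps29 probe sets lay below it as well (-0.42 and -0.36). The standard error was 0.17 for every gene against the family, so these p-values do not measure a gene's own spread between pools. Rpl9 itself spread widely, from 230.5 on induced 1 to 451.2 on induced 2. In this fit 96.6% of all probe sets tested were called lower and 0.165% higher, so adjustment hardly changes a p-value here, and among the 334 probe sets over 100 in mean signal 5.69% were called higher and 39.5% lower. With a pseudocount of 1, 0 genes were called against the family (0 at unadjusted p under 0.05). Rpl26, a protein at the tunnel exit, had 265.1, 183.7 and 226.7 on induced arrays, against 172.7, 154.6 and 178.8 on control arrays.

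Scaling between arrays changed the size of the rise. As deposited, 30 genes rose with a median log2 change of 0.72 over the 39 genes, and scaled to the hybridization controls it was 30 and 0.72. Scaled to 1 trimmed mean 20 genes rose (median 0.59), scaled to 1 median of bright probe sets 25 (median 0.45), and after quantile normalization 17 (median 0.33). In each scaling the genes called were among the 30. Of all probe sets, 4.19% were called higher as deposited, 3.89% with the hybridization controls, 3.3% with the trimmed mean, 2.85% with the bright median and 3.04% after quantile normalization. Called lower were 1.35% as deposited, 1.26% with the hybridization controls, 2.74% with the bright median and 2.66% after quantile normalization. The median of other probe sets over 10 was 0.21 as deposited and 0.04 after quantile normalization, and the family lay above it by 0.51 and by 0.29. After quantile normalization Rps29, Rplp2, Rpl38, Rpl18, Rpl26 and Rpl27 had negative changes, none called, and 1 probe set of Rps9 was called lower.

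**Figure D4:**
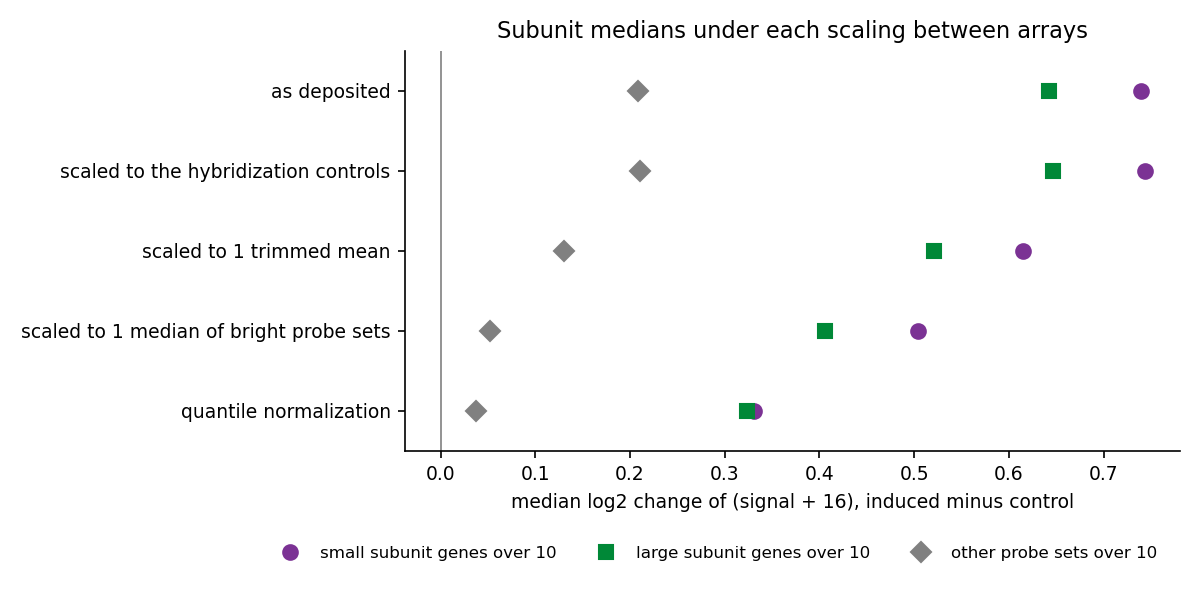
Median change in log2(signal + 16), induced minus control, of small and large subunit genes over 10 and of other probe sets over 10, under each of the scalings between arrays. The ribosomal medians lie above the other probe sets in every scaling drawn, from 0.74 and 0.64 as deposited to 0.33 and 0.32 after quantile normalization.

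Of 20 genes with several probe sets over 10, 18 had a highest ratio within 1.5 times the lowest. The exceptions were Rpl7, with ratios from 1.02 to 2.76, and Rpl41, from 0.186 to 1.89. The low Rpl41 probe set read 348.3 on control 1 and 7.3 to 49.9 on the other arrays. For 8 genes a called probe set stood beside a probe set of opposite sign, each with a mean signal of at most 1.02. By Affymetrix's naming, probe sets ending in _x_at may cross-hybridize, and 46 of the 112 have that ending. Ribosomal protein genes have many processed pseudogenes, so a signal may include RNA of other copies.

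**Figure D5:**
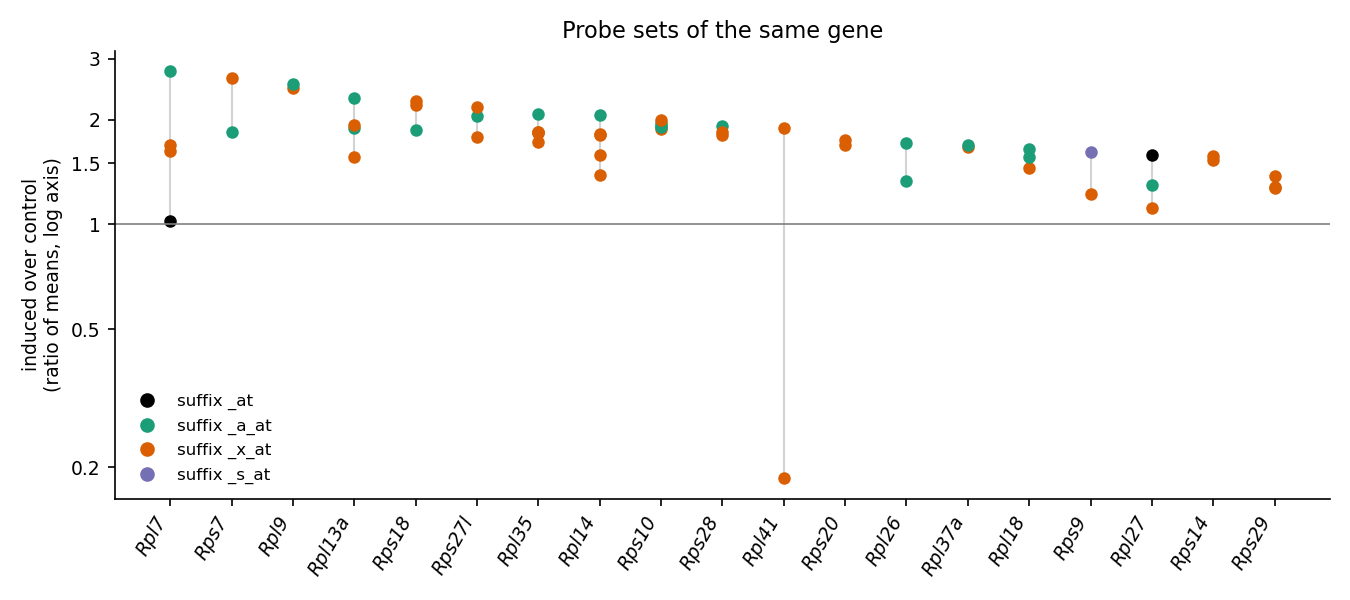
Ratio of induced over control mean signal (log axis) for each probe set over 10 of 19 genes with several such probe sets, coloured by suffix. For 17 of the 19 genes the highest ratio is within 1.5 times the lowest, and Rpl7 and Rpl41 spread furthest.

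In the table the authors deposited, 66 of 112 member probe sets had p under 0.05 and were higher in induced marrow, where 6.45% of all its probe sets were, and 1 was lower, where 6.01% were. The lower one was a probe set of Rps9 whose deposited signals gave a ratio of 1.23. In the authors' deposited list of 2-fold differences 1 member appeared, a probe set of Rpl9 at 2.06, where 1.54% of all probe sets were listed as higher and 0.998% as lower. Across the 39 genes, the ratios of the deposited signals and of the authors' deposited table had a Spearman rho of 0.80. This is a description across genes of the same 6 arrays. The authors' ratios were smaller, with a median of 1.38 (0.94 to 1.89), against 1.72 (1.27 to 2.47) from the deposited signals.

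Other genes of translation were tested in the same fit. Among all probe sets tested, 4.19% rose and 1.35% fell, among those with a mean signal over 10, 32.7% and 8.26%, and among those over 100, 55.4% and 7.19%. Of 17 genes whose mRNAs also carry a TOP motif 10 rose (58.8%) and 0 fell, and nothing particular to the list is read from that share. Eef1a1, which brings tRNA to the ribosome, had 671.4, 521.1 and 625.0 on induced arrays, against 315.8, 302.6 and 359.1 on control arrays (ratio 1.86, limma, adjusted p = 0.000909). Gnb2l1, the ribosome-bound scaffold Rack1, had a ratio of 2.33 (limma, adjusted p = 0.00279), and Tpt1 a ratio of 1.27 that did not pass (limma, adjusted p = 0.178). Fau, which encodes a ribosomal protein behind a ubiquitin-like part, had a ratio of 1.43 that did not pass (limma, adjusted p = 0.0682). Of 49 genes of ribosome assembly and RNA polymerase I, 4 rose (8.16%) and 0 fell: Nop10, Polr1d, Rrs1 and Ebna1bp2. Nucleolin, Ncl, had 30.9 ± 5.13 on induced and 30.9 ± 11.1 on control arrays (SD, n = 3 each). Of 16 genes of the TOR pathway and Larp1, which controls TOP mRNAs, 0 were called in either direction by limma (1 higher and 0 lower at unadjusted p). Nearly all of these 16 genes, and most of the 49 of ribosome assembly, had a mean signal of 10 or under. There the pseudocount shrinks every change, so the lack of a call does not show that a gene was unchanged. Of 74 mitochondrial ribosomal protein genes 12 rose (16.2%) and 0 fell, and Mrpl52 had a ratio of 1.65 (limma, adjusted p = 0.0145).

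Cell type markers moved in the same arrays, where 4.19% of all probe sets tested rose and 1.35% fell. Among probe sets over 10 in mean signal, 32.7% rose and 8.26% fell. Of 12 erythroid markers 10 fell, and their summed signal was 282 to 357 on induced arrays, against 1203 to 1394 on control arrays, with none at background on every array. Of 4 promyelocyte markers 3 fell, with sums of 83.3 to 118.6 on induced arrays, against 189.2 to 234.2 on control arrays. Of 8 neutrophil markers 4 rose, with sums of 8881 to 10104 on induced arrays, against 6868 to 7756 on control arrays. Most of each sum was S100a8 and S100a9, with ratios of 1.31 and 1.26, where the median ratio of all probe sets over 10 was 1.33. Ratios of the 8 markers ran from 0.98 to 10.8. The highest was that of Il1r2, whose control signals of 0.2, 0.4 and 1.0 were under background, and the next was 2.47 for Slpi. Eosinophil markers rose in 3 of 4 tested, with sums of 221.0 to 269.8 on induced arrays, against 22.2 to 31.8 on control arrays, and 2 of the 5 measured stood at background throughout. B cell markers rose in 2 of 7, plasma cell markers in 3 of 4 and macrophage markers in 4 of 6, and T cell markers in 0 of 5 by limma (1 of 5 at unadjusted p). Skeletal muscle markers summed to 0.6 to 3.7 on induced arrays, against 1.3 to 6.0 on control arrays. The part of these shifts in the ribosomal protein changes was not tested.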

How the data were processed

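Signals of whole marrow RNA from 3 induced and 3 control arrays, each a pool of 3 mice, were used as the authors deposited them. The submitters' processing notes name MAS5 as the source of these deposited linear intensities. Its version and the target it scaled to are not given in the sources used here. A second table deposited by the authors holds ANOVA p-values without adjustment, linear ratios of control to induced means, and a signed fold change, here treated as a score. What went into that ANOVA is not stated. From the deposited intensities log2(signal + 16) was computed, which understates the change of dim genes. Probe sets over the 30th percentile of mean log2 value entered the test, without 64 control probe sets. Groups were compared by limma 3.58.1 in R 4.3.3 (lmFit, eBayes; induced minus control), and p-values were adjusted over 31526 probe sets by Benjamini-Hochberg. Each gene is given by the probe set of highest mean log2 value. The number of arrays limits the precision, and p-values measure the spread between pools. The fit against the family is an exception, as it gave every gene the same standard error.

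Named genes were the 6 brightest and the 3 with the largest and smallest change in each subunit, the stalk, paralog and Diamond-Blackfan genes, genes called against the family and genes with probe sets of opposite sign. Rpl6, Rpl14, Rpl7, Rpl8, Rpl37a, Rpl41 and Rps2 lie outside this rule and were added with their values known. Some genes enter the counts but are not reported here by name or drawn. Of related lists the brightest 3 were eligible, and the text gives part. The members and lists were chosen with earlier results of these data known. In simulated data on 31526 probe sets, the comparison of induced and control found 48 of 100 probe sets changed 2-fold and 91 of 100 changed 4-fold, with 5 false among 144 calls. Start windows came from RefSeq, GRCm38.p6. Replicate numbers shared between groups did not pair the arrays (correlations of -0.07, 0.04 and -0.03).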

Additional observations from a re-analysis of the deposited data

How the results depend on the processing

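The calls depended on the log scale. Genes called higher numbered 30, against 0 with a pseudocount of 1, 17 with a pseudocount of 64, 13 with no filter, 17 after quantile normalization, 5 by the authors' deposited p-values after Benjamini-Hochberg adjustment and 4 with only probe sets ending in _at. Probe sets called higher numbered 58, against 0, 36, 22, 38 and 7 in the first 5 of these. Leaving out 1 array gave 17 (without control 2) to 34 genes and 32 to 66 probe sets. Probe sets called lower numbered 0, against 1 after quantile normalization and 2 with an intensity trend. Genes called against the family numbered 15, against 0 with a pseudocount of 1. The median log2 change of all 48 genes was 0.63, against 0.24 after quantile normalization, 0.38 scaled to bright probe sets and 0.02471 with only probe sets ending in _at. The subunit difference of 0.08 was -0.01901 by the authors' deposited ratios and -0.07369 with the probe sets of each gene averaged. The cause of these shifts was not tested. Scaling to the hybridization controls and keeping only genes over 10 were chosen after seeing the data.

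Signs turned only for genes not called. After quantile normalization they were -0.01725 for Rps29, -0.14 for Rplp2, -0.01115 for Rpl38, -0.0125 for Rpl18, -0.08483 for Rpl26 and -0.17 for Rpl27. By the authors' deposited ratios they were -0.08915 for Rps29, -0.02963 for Rplp2, -0.1961 for Rps25, -0.05747 for Rpl3l and 0.02577 for Rps16. Scaled to bright probe sets Rps25 was -0.01007 and Rpl39l -0.01218, and scaled to 1 trimmed mean Rpl39l was -0.006369. Leaving out 1 array gave -0.05132 to 0.09343 for Rps25, -0.01363 to 0.04652 for Rpl3l and -0.02177 to 0.02907 for Rpl39l. With the replicate number as a block, 31 genes and 60 probe sets were called higher, and the numbers did not pair the arrays. Of the 23 named genes called, 23 lost the call with a pseudocount of 1, 20 by the authors' deposited p-values, 12 with no filter, 11 after quantile normalization and 8 each with a pseudocount of 64, scaled to 1 trimmed mean and without control 2. Among them, Rps24 and Rps14 lost it whichever control was left out, Rps10 also without control 3, Rpl22l1 also without control 1, and Rps14, Rps10 and Rpl22l1 also without induced 3. The comparison with the family was not run on the authors' values, on gene means or on probe sets ending in _at.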
